A study of Mus musculus with 34 samples.

Results

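The 10 genes for subunits of AP-1 examined here were Fos, Fosb, Fosl1, Fosl2, Jun, Junb, Jund, Atf3, Batf and Batf3. Open chromatin around them was read from 19 ATAC-seq summit lists. ATAC-seq uses a transposase that cuts and tags accessible DNA, and a summit is the base of highest signal in a called peak. Summits inside a gene or within 50 kb of its mm10 interval were taken, and summits of any list that followed each other by 250 bp or less were merged to a single position. This gave 165 positions near the 10 genes, out of 117928 positions near 21631 protein-coding genes and 156849 in all.

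AP-1 is a dimer of basic leucine zipper proteins. Jun, JunB and JunD pair with each other or with Fos, FosB, Fra-1 (Fosl1) and Fra-2 (Fosl2), and ATF3, BATF and BATF3 pair mainly with Jun proteins. The dimers bind short DNA elements in enhancers and promoters. Several of the genes are immediate-early genes that serum, growth factors and stress switch on within minutes, and the Jun gene is a known target of its own protein. In fibroblasts AP-1 is known as a broad occupant of enhancers and works with the SWI/SNF chromatin remodeller, of which Brg1 is an ATPase subunit. BATF and BATF3 are best known from lymphocytes and dendritic cells.

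The study induced Etv2, an ETS-family factor that specifies endothelial and blood progenitors, with doxycycline in mouse embryonic fibroblasts (MEF) and in embryoid bodies (EB), which are aggregates of differentiating embryonic stem cells. The fibroblasts are named iHA-Etv2 MEF in the protocol, and the cells were detached or disaggregated with trypsin before the reaction. MEF without knockdown were uninduced (day 0), induced for 1, 2 or 7 days, or induced for 7 days and Flk1+. Flk1 is the product of Kdr and marks early endothelial and blood progenitors. Brg1 knockdown MEF were taken on day 0 and, with or without doxycycline, on days 1, 2 and 7. EB of 12 h were uninduced, induced, or induced and Flk1+. The 12 h is the time their labels give, their titles carry D25, and the age of these EB is not given in the sources used here. Brg1-floxed EB of day 4, all with doxycycline per the labels, were left without or given 4OHT, the tamoxifen metabolite commonly used to activate a Cre recombinase. The promoter driving Etv2, the knockdown reagent and the recombinase are not given in the sources used here. Summit lists show neither the level of Brg1 nor its deletion, so neither was checked.

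Each of 17 groups had 2 samples. In 15 groups both samples share 1 summit list, so these groups have no replicate error and no test. Each of the 4 floxed EB samples has its own list. With 2 against 2 an exact two-sided permutation test cannot go below p = 0.333, so no test was made there either. Lists held 11188 to 85498 summits, and the number of summits is the only sign of depth used. The shortest were both day-7 knockdown lists, of which the uninduced one held 6 positions near the 10 genes and the induced one 11. The remaining 17 lists held 25 to 96. Floxed EB lists held few more summits than positions, 31436 and 31143 in the first sample without 4OHT, against 85498 and 78072 in uninduced EB. Counts in floxed EB are therefore not fully comparable with those of the other lists, and the reason was not tested. Fewer cells with an open site and a weaker opening in every cell cannot be told apart in such bulk lists.

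Checks of the cell types used marker genes with a listed transcription start. Pluripotency genes had a summit within 1 kb of the start in 1 of 6 cases in uninduced MEF and in 6 of 6 in uninduced EB. Fibroblast genes had one in 7 of 8 cases in uninduced MEF and in 4 of 8 in both the day-7 Flk1+ MEF and the uninduced EB. Endothelial genes had one in 4 of 7 cases in uninduced MEF and in 2 of 7 in the Flk1+ MEF, so these starts do not mark the sorted cells as endothelial. Macrophage genes, markers of a cell type that could be present beside fibroblasts, had one in 1 of 4 cases in uninduced MEF.

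The promoters of 4 of the genes are shown first, because their start regions show the range of accessibility found. The Fos and Jun starts were accessible in nearly every list, the Batf start in none, and the Batf3 start only in EB lists. Sequences are from RefSeq, GRCm38.p6 (mm10), and run from 250 bases before to 50 after the transcription start, along the gene. Fos is chr12:85473640-85473939 (plus strand), Jun chr4:95052173-95052472 (minus), Batf chr12:85686470-85686769 (plus) and Batf3 chr1:191098164-191098463 (plus). Capitals mark in Fos the element TGACGT, the core of a cAMP response element, and the TATA box. They mark in Jun the CCAAT box and TGACATCA, the element through which Jun is known to act on its own gene. In Batf they mark CCGGAAG, an ETS-type element, and TGACGT. In Batf3 they mark each GGGCGG, the GC box bound by Sp and KLF factors.
Fos: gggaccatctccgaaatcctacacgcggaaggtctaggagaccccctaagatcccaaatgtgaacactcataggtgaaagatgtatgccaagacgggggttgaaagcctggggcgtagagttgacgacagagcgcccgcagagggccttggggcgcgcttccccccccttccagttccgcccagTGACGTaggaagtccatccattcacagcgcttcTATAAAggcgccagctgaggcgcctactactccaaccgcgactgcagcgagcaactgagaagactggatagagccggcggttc
Jun: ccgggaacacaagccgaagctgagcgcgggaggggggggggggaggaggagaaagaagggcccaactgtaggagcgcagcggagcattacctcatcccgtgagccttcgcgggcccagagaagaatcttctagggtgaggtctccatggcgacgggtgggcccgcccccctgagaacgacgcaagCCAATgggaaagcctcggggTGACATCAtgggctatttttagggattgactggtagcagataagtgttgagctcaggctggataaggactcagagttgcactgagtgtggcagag
Batf: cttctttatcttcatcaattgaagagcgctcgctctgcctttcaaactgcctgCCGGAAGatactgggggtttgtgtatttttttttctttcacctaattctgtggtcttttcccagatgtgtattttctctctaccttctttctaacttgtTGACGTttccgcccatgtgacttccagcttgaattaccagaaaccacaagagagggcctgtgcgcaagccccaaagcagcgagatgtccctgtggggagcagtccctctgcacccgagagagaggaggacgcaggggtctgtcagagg
Batf3: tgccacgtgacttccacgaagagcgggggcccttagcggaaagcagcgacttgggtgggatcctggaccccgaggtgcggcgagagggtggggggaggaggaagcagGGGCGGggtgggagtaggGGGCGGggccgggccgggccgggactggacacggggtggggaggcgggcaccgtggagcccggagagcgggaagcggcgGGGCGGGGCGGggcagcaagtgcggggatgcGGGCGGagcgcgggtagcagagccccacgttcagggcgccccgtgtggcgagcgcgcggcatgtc

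A search on both strands of 21045 RefSeq promoters of this length put these matches in context. TGACATCA was present in 2.99% of promoters and, among the 9 genes with an entry, in Jun, 45 to 38 bases before the start (-45 to -38). TGACGT was present in 8.58% of promoters and in Fos, Atf3 and Batf. This element is contained in TGACGTCA, the full cAMP response element, which was present in 2.26% of promoters and in none of the 9. The classical AP-1 element TGACTCA was present in 4.69% and in none of the 9, and the CArG box, the site of serum response factor, in 1.54% and in none of the 9. CCGGAAG was present in 11.7% and in Batf alone of the 9. GGGCGG was present in 46.7% of promoters and in 7 of the 9 genes. TATAAA was present in 12.7% and in Fos and Junb, and CCAAT in 38.5% and in Jun, Junb and Atf3. A match is only a run of letters in this window.

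Base composition varied among the promoters. The Batf3 promoter was 75.7% G+C, at the 95.9 percentile of all promoters, with 34 CpG pairs. The Batf promoter was 49.7% G+C with 9 CpG pairs, and the Jund promoter 46.7% with 3, although a summit lay within 2 kb of the Jund start in 18 lists. The Fos promoter was 58.7% G+C with 20 CpG pairs and the Jun promoter 60.0% with 15. The median promoter was 56.7% G+C with 13 CpG pairs.

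Positions near the AP-1 genes were more widely shared between lists than positions near genes in general. Of the 165, 34 (20.6%) were present in 14 or more of the 19 lists, against 9.74% of positions near all protein-coding genes. Of the 165, 43 (26.1%) were present in 1 list, against 37.4%. None was present in all 19 lists, against 1.96%, while 16 (9.7%) were present in all 17 lists other than the day-7 knockdown lists, against 5.58%. Of the 165, 57 (34.5%) lay within 1 kb of the start of a gene, against 20.2%, and positions at starts are shared more often in these lists. Counts over positions that neighbour each other are not independent, and no test was made.

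Neighbouring genes made up much of this number. The windows of Fos, Jun and Fosl2 held no other protein-coding gene interval, and for Fos all 13 positions and for Jun 18 of 21 had the member as nearest gene. The window of Fosl1 held 11 other genes, and 3 of its 18 positions were nearest to Fosl1. Junb (5 of 24), Jund (4 of 15) and Batf (2 of 7) were also surrounded by positions nearer to other genes. Atf3 and Batf3 are neighbours on chromosome 1, and their windows shared 8 positions.

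**Figure D1:**
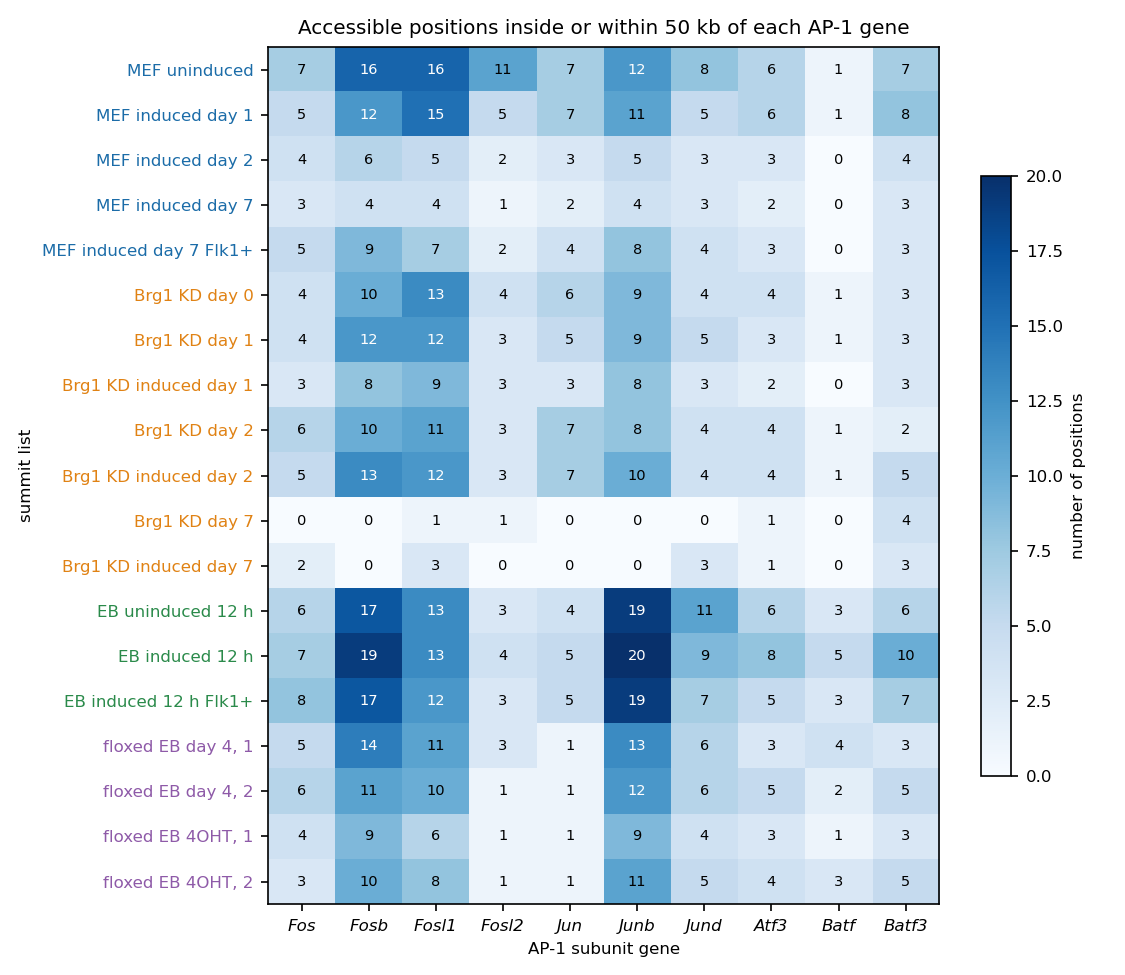
Number of accessible positions inside or within 50 kb of each AP-1 gene (columns) in each of the 19 summit lists (rows). Row labels are blue for MEF, orange for Brg1 knockdown (KD) MEF, green for EB of 12 h and purple for the 4 floxed EB samples. Fosl2 stands at 11 in uninduced MEF and at 5 or fewer elsewhere, and Junb reaches 19 to 20 in EB of 12 h.

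The transcription starts of Fos, Jun and Atf3 were the most regularly accessible, each with a summit within 1 kb in 17 of 19 lists. Both missing lists were the day-7 knockdown lists. Fosl2 had such a summit in 16 lists, Fosl1 in 14, Fosb in 13, Junb and Jund in 10, Batf3 in 7 and Batf in 0. For Fosl1, which has no entry in the promoter table, either end of the gene was used. In uninduced MEF 8 of the 10 genes had a start summit, against 57.1% of 17274 genes, and in uninduced EB 8 of 10, against 67.4%. The induced MEF lists had 8 of 10 on day 1 (54.7% of genes), 5 on day 2 (45.1%), 6 on day 7 (35.5%) and 7 in Flk1+ cells (47.9%). Induced EB had 9 of 10 (67.4%) and Flk1+ EB 8 (65.6%). Knockdown MEF had 6 on day 0 (53.4%), 6 and 7 on day 1 without and with doxycycline (53.7% and 49.0%), 6 and 8 on day 2 (54.8% and 53.0%) and 1 and 0 on day 7 (16.1% and 17.9%). Floxed EB had 6 and 8 without 4OHT (61.5% and 58.5%) and 7 and 7 with it (54.2% and 56.3%).

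Peak scores grow with depth, so the strength of a start was read as its percentile among the summits of the same list. The percentile still depends on what else a list holds. Positions at a start made up 30.6% of those near genes in uninduced MEF, 52.4% on day 2 and 62.0% on day 7. A lower percentile in a shorter list therefore need not mean a weaker opening. Jun, the main dimer partner of Fos proteins, had a median percentile of 83.4 over its 17 lists. It stood at 91.0 in uninduced MEF, 95.1 on day 1, 86.1 on day 2, 15.1 on day 7 and 75.0 in Flk1+ MEF. In EB of 12 h it stood at 95, 96.3 and 93.5. The low day-7 value was 1 of 17, and the other 16 lay at 58.8 or above. The full joined position at the Jun start, which extends past the 1 kb limit, stood at 29.8 on day 7. Fos stood at 80.3, 86.2, 26.8, 22.1 and 68.1 in the same 5 MEF lists and at 82.8, 86.5 and 78.6 in EB, so its 2 lowest values were those of MEF on days 2 and 7. Atf3, a stress-induced repressor and activator, did not show such low values. It stood at 92.3, 93.0, 83.1, 71.1 and 80.8 in MEF, and its lowest value in any list was 62.2.

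Batf3 split the lists by cell type. A summit lay within 1 kb of its start in all 7 EB lists and in 0 of the 12 fibroblast lists. Its percentiles were 72.2 in uninduced, 75.4 in induced and 54.7 in Flk1+ EB of 12 h, 41.9 and 59.1 in floxed EB without 4OHT and 31.9 and 50.1 with it. The 2 pairs of floxed values overlap. Of 17274 genes 437 (2.53%) had this same pattern. Batf, the other BATF gene, had no start summit in any list, as did 28.8% of genes. For Batf the nearest summit in any list lay 11.6 kb from the start.

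For Jund, a subunit known for steady expression, the 1 kb limit decided the count. Its summit lay inside the gene, 876 to 1174 bases after the start, and within 2 kb it was present in 18 of 19 lists. The position holding it (chr8:70698615-70699032) had percentiles of 65.7 to 92.6 in the 5 MEF lists and of 96.0 to 98.9 in the 4 floxed EB lists. Within 2 kb the count became 18 for Fosl2, 17 for Fosb and 15 for Junb, and it was still 7 for Batf3 and 0 for Batf. For Fosl1 it became 18, but the 4 added lists held a position at neighbouring Ccdc85b, past the other gene end (chr19:5457357-5457762). With a score of at least 10, an alternative chosen after the data were seen like the 2 kb limit, the number of genes with a start summit in 17 or more lists was 0, against 3 with all summits within 1 kb and 7 within 2 kb, or 6 without Fosl1.

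**Figure D2:**
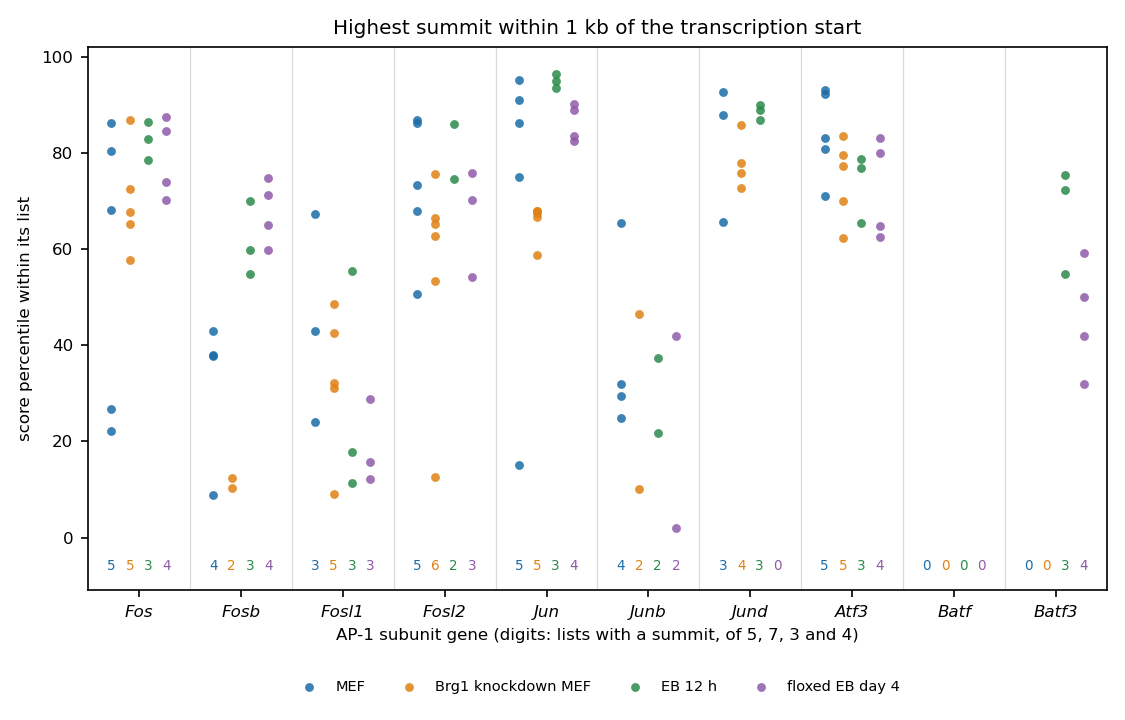
Percentile, within its own list, of the highest-scoring summit within 1 kb of each gene's transcription start (for Fosl1, of either gene end). Each point is 1 summit list and the coloured digits count the lists with such a summit, of 5 MEF, 7 Brg1 knockdown, 3 EB and 4 floxed EB lists. Batf has no point, and Batf3 has points in the EB groups only.

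Fos, the founding member of the family, had 13 positions, 12 of them away from its start. It had 7, 5, 4, 3 and 5 positions in MEF uninduced, on days 1, 2 and 7 and in Flk1+ MEF, and 6, 7 and 8 in uninduced, induced and Flk1+ EB. In the knockdown lists it had 0 to 6 with a median of 4. A pair of its distal positions were each present in 18 of 19 lists, as many as any position near the 10 genes. The first lay at -18.3 kb (chr12:85455254-85455833; offsets count along the gene from the transcription start, negative values upstream) and the other at 12.3 kb (chr12:85486039-85486341). Both were missing from the uninduced day-7 knockdown list. Percentiles at -18.3 kb were 87.0, 78.7, 19.1, 74.9 and 81.3 in the 5 MEF lists and 88.5 to 96.6 in floxed EB. At 12.3 kb they were 78.9, 75.9, 46.9, 56.0 and 65.0 in MEF and 93.1, 95 and 93.8 in EB of 12 h.

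Around this shared pair the Fos window differed between cell types. The position at 24.0 kb (chr12:85497692-85498032) was present in 7 fibroblast lists and 0 of 7 EB lists. It stood at percentile 79.4 in uninduced MEF, 59.5 on day 1 and 7.58 on day 2 and was missing on day 7 and in Flk1+ MEF. The position at -1.54 kb (chr12:85472260-85472443) was present in all 3 EB lists of 12 h, in both floxed EB lists without 4OHT and, among 12 fibroblast lists, in Flk1+ MEF alone, at percentile 24.3. The position at -29.0 kb (chr12:85444852-85444878) was absent from uninduced EB and present in induced EB at percentile 75.9, in Flk1+ EB at 61.9 and in 1 floxed EB list at 20.1.

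Fosl2, which encodes Fra-2, had most of its positions in uninduced fibroblasts. Its 11 positions in uninduced MEF stood against 5, 2, 1 and 2 in the induced lists of day 1, day 2, day 7 and Flk1+ cells. Of these 11, 7 were in no induced MEF list, as were 32.5% of the uninduced MEF positions near all genes. The 7 had percentiles of 17.7, 12.8, 0.05, 4.96, 12.4, 47.4 and 43.5 in uninduced MEF. That list was also the longest MEF list, with 62028 summits against 18418 to 50015 in the induced ones. The 7 knockdown lists held 0 to 4 with a median of 3, the EB lists of 12 h 3, 4 and 3 and the floxed EB lists 3 and 1 without 4OHT and 1 and 1 with it. The highest-ranked of the 7 lay at 40.7 kb (chr5:32177123-32177123), was in no other list and had percentile 47.4. At 55.9 kb (chr5:32192196-32192450) a position was present in 4 MEF and 4 knockdown lists, at percentiles of 21.0 to 70.4, and in 2 EB lists at 4.82 and 21.8. The start-proximal position at -0.767 kb was present in 18 lists.

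Fosl1, which encodes Fra-1, had 16, 15, 5, 4 and 7 positions in the MEF lists and 13, 13 and 12 in EB of 12 h. Positions at a gene start made up 13 of its 18, most of them at neighbours such as Drap1, Ccdc85b and Mus81. A position at -2.71 kb from the lower gene end (chr19:5444832-5445143) was present in 6 fibroblast lists, at percentiles of 35.1 to 56.1, and in 0 of 7 EB lists. It was in uninduced MEF and on day 1 and in none of the later MEF lists. The table gives no strand for Fosl1.

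Fosb, an immediate-early relative of Fos, had 16, 12, 6, 4 and 9 positions in the MEF lists, 17, 19 and 17 in EB of 12 h and 14, 11, 9 and 10 in floxed EB. A position inside the gene at 1.51 kb (chr7:19308325-19308745) was present in 16 lists, and one at -9.94 kb (chr7:19319811-19320166) in 15. The second stood at percentile 75.2 in uninduced MEF, 65.4 on day 1 and 79.3 in Flk1+ MEF and was missing on days 2 and 7 in unsorted MEF. A position at -6.95 kb (chr7:19316986-19316995) was found in 3 lists only, uninduced MEF (percentile 70.8), day 1 (53.7) and day 2 (55.8).

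Jun had 7, 7, 3, 2 and 4 positions in the MEF lists, 0 to 7 in knockdown MEF with a median of 5, 4, 5 and 5 in EB of 12 h, and 1 in each of the 4 floxed EB lists. Its start position (chr4:95051777-95053437) was one of 2 near the 10 genes that were wider than 1 kb. Within 1 kb of the Jun start each floxed EB list held 1 summit, against 3, 3 and 2 in EB of 12 h. Fibroblast lists alone held 14 of its 21 positions, EB lists alone 4, and both kinds 3. A position at 50.7 kb (chr4:95001302-95001672, nearest gene Mysm1) stood at percentiles of 88.4, 82.9 and 58.7 in uninduced MEF and on days 1 and 2 and was missing on day 7, in Flk1+ MEF and in all 7 EB lists. A position at 26.1 kb (chr4:95025975-95026218) stood at 78.8, 89.5 and 72.5 in the same 3 lists, was missing on day 7, and stood at 59.4 in Flk1+ MEF. One at 3.65 kb, just past the gene (chr4:95048436-95048698), was missing from uninduced MEF and present on day 7 (47.5), in Flk1+ MEF (33.3) and in the induced knockdown lists of days 1 (34.9) and 2 (58.6). It was absent from the induced MEF lists of days 1 and 2 and the induced knockdown list of day 7. It was also in none of the uninduced fibroblast lists, with or without knockdown, and in no EB list.

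Junb and Jund lie among other genes on chromosome 8. Junb, an immediate-early gene with a role in blood and skin, had 12, 11, 5, 4 and 8 positions in MEF, 19, 20 and 19 in EB of 12 h and 13, 12, 9 and 11 in floxed EB. EB lists alone held 10 of its 24 positions, of which 6 lay inside Mast1, a microtubule-associated kinase gene. The position just past Junb at 2.37 kb (chr8:84976098-84976652) was present in all lists but the day-7 knockdown ones, at percentiles of 75.5, 60.7, 44.0, 4.1 and 56.4 in MEF. Jund had 8, 5, 3, 3 and 4 positions in MEF, 11, 9 and 7 in EB of 12 h and 6, 6, 4 and 5 in floxed EB. The position at -15.4 kb (chr8:70682234-70682439) stood at 89.1 in uninduced MEF and at 4.71 and 19.2 in 2 EB lists.

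Atf3 had 6, 6, 3, 2 and 3 positions in MEF, 6, 8 and 5 in EB of 12 h and 3, 5, 3 and 4 in floxed EB. Its start position (chr1:191182632-191183529) ranked second among the 18 positions present in all 5 MEF lists, behind one inside Lsm4 near Jund. Upstream of Atf3 the position at -33.0 kb (chr1:191216313-191216340) was found in uninduced MEF (66.1) and on day 1 (41.9) only, and that at -38.9 kb (chr1:191222228-191222228) in uninduced MEF only (69.5). A position at -47.3 kb (chr1:191230499-191230696) was found in 3 knockdown lists only, all of them without doxycycline, at percentiles of 14.2 to 59.0.

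Batf had 1, 1, 0, 0 and 0 positions in MEF, 3, 5 and 3 in EB of 12 h and 4, 2, 1 and 3 in floxed EB. Inside the gene, positions at 11.6 kb (chr12:85698332-85698372) and 18.9 kb (chr12:85705430-85705758) were present in all 3 EB lists of 12 h and in 0 of 12 fibroblast lists. The second stood at 79.7, 73.2 and 64.7, and in floxed EB at 68.7 and 48.5 without 4OHT and at 20.7 in 1 of 2 lists with it. The gene table holds no exons, so exons and introns were not assigned. The 1 position that fibroblasts had near Batf lay 59.6 kb from its start, beside Flvcr2, a transporter gene.

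Batf3 had 7, 8, 4, 3 and 3 positions in MEF, 6, 10 and 7 in EB of 12 h and 3, 5, 3 and 5 in floxed EB. The 3 positions inside Tatdn3, from -47.2 to -46.2 kb, gave 3 of its 4 positions in the uninduced and 2 of its 3 in the induced day-7 knockdown list. Inside Nsl1 at -22.8 kb (chr1:191075464-191075691) a position was present in 4 MEF lists, in the induced knockdown lists of days 1 and 2 and in both induced EB lists. It was absent from every other knockdown list and from uninduced EB. Its percentile was 54.2 in uninduced MEF, 68.7 on day 1, 3.11 on day 2 and 86.6 in Flk1+ MEF. Between Batf3 and Atf3 a position (chr1:191120978-191120991) was present in the 4 floxed EB lists at percentiles of 93.4, 93.5, 98.7 and 97.4 and in 0 of the other 15 lists. Floxed EB differ from the other EB in the floxed label, the day and the processing set, which cannot be told apart here.

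**Figure D3:**
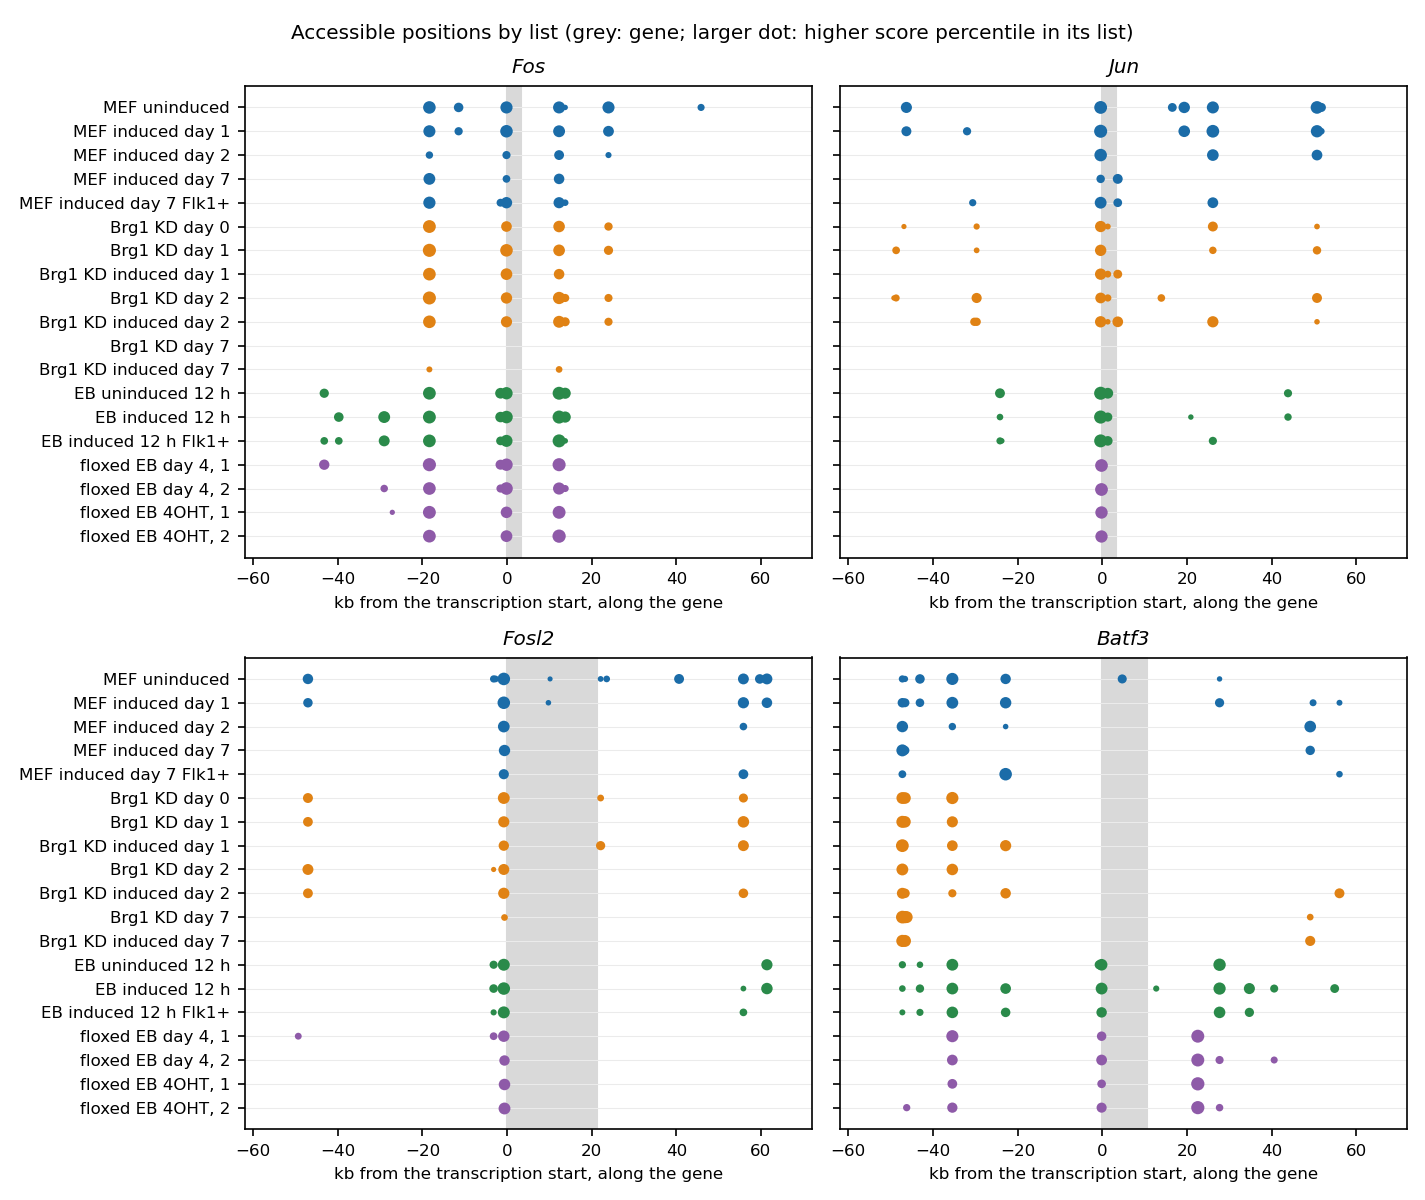
Positions near Fos, Jun, Fosl2 and Batf3 in each summit list, by distance in kb from the transcription start along the gene, with the gene in grey. Each dot is a position in 1 list, and larger dots have a higher score percentile in that list. Fos keeps its pair at -18.3 and 12.3 kb in 18 lists, and the Batf3 start is marked in EB lists only.

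The first comparison asked which positions near the AP-1 genes were shared between induced and uninduced MEF. A position was called lost when the uninduced list held it and the induced list did not, and gained in the reverse case. These words describe list membership only, and all 4 induced lists are set against the same uninduced list. On day 1, 22 of 90 positions (24.4%, exact 95% interval 16 to 34.6%, counting error only) were lost, against 34.7% near all genes, and 4 of 72 (5.56%) were gained, against 15.6%. Fosl2 with 7 lost and 1 gained and Fosb with 4 and 0 accounted for 11 of the losses, and Junb, Jun, Fosl1 and Batf3 lost 1 each. More positions were lost than gained at 6 of 10 genes, against 62.3% of all genes, and the reverse held at 1, Batf3, against 12.5%.

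On day 2, 57 of 90 (63.3%, 52.5 to 73.2%) were lost, against 64.3%, and 1 of 34 (2.94%) was gained, against 9.95%. On day 7, 67 of 90 (74.4%, 64.2 to 83.1%) were lost, against 78.5%, and 2 of 25 (8.0%) were gained, against 14.8%. In Flk1+ MEF 51 of 90 (56.7%, 45.8 to 67.1%) were lost, against 62.0%, and 5 of 44 (11.4%) were gained, against 16%. All 10 genes had more lost than gained in each of these 3 lists, against 88.3%, 91.5% and 85.4% of genes, and 0 had more gained, against 2.82%, 2.9% and 3.83%. The shares lost were thus near the background on days 2 and 7. The induced lists were also shorter, with 26217, 18418 and 29520 summits against 62028 uninduced. With both lists cut to equal length the lost share was 25.7% on day 2 (34.6% near all genes), 37.5% on day 7 (49.4%) and 35.7% in Flk1+ MEF (38.8%).

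The losses were then split by whether a position lay at a start. On day 2, 21 of 39 positions at a start (53.8%, 37.2 to 69.9%) were lost near the AP-1 genes, against 33.8% near all genes. Away from starts it was 36 of 51 (70.6%, 56.2 to 82.5%), against 77.8%. The 21 included the starts of Fosb, Fosl1 and Junb, and 9 of them lay in the Fosl1 window, where neighbouring genes are dense. On day 7 starts gave 23 of 39 (59.0%, 42.1 to 74.4%), against 49.9%. With summits of a score of at least 10 only, the lost share near the AP-1 genes lay above that near all genes, at 89.6% against 77.2% on day 2, 95.8% against 89.3% on day 7 and 79.2% against 67.7% in Flk1+ MEF.

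Of the 90 positions in uninduced MEF 18 (20%) were present in all 5 MEF lists, against 19.3% near all genes, so this share was near the background. They were led by those at Lsm4, Atf3 and Jun with percentiles of 94.3, 92.3 and 91.0 in uninduced MEF. Fos and Junb held 3 each and Fosl1 4. All 18 were also in each of the 3 EB lists of 12 h, as were 89.3% of such positions near all genes. Another 21 of the 90 (23.3%) were in no induced MEF list, against 32.5%. In this class Fosl2 held 7, Fosb 4 and Jund 3. The positions gained on day 1 ranked low, with percentiles of 27.7 for Jun at -32.0 kb and 14.9 and 6.16 for a pair near Fam71a in the Atf3 window.

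**Figure D4:**
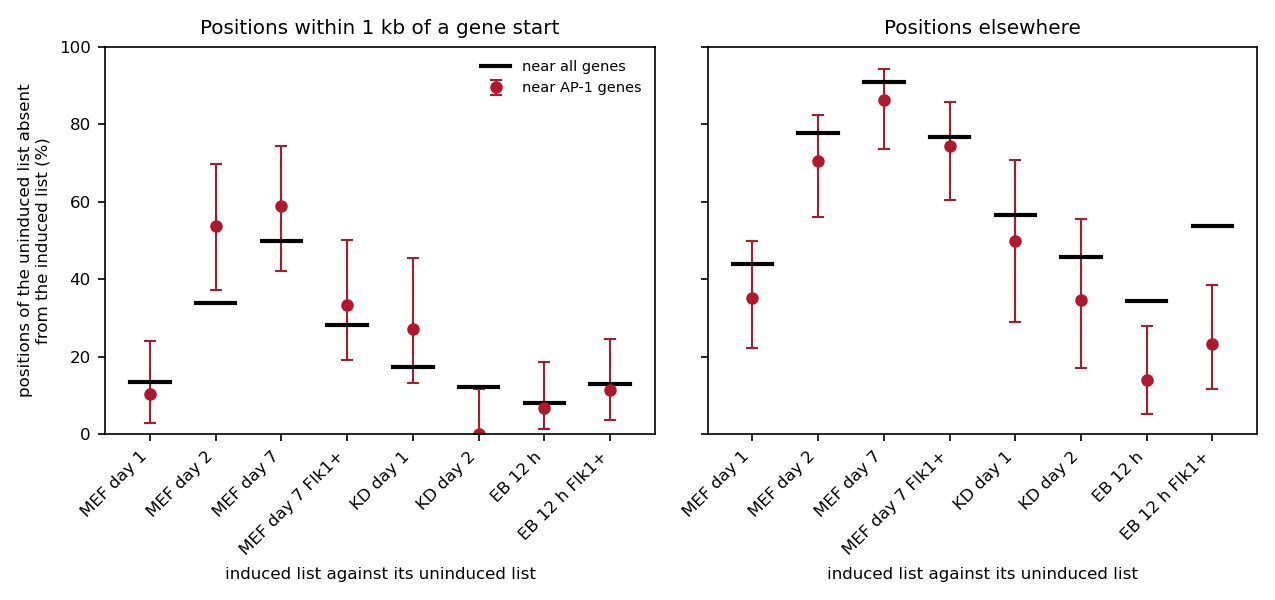
Share of positions in the uninduced list that were absent from the induced list, for positions within 1 kb of a gene start (left) and elsewhere (right), in percent. Red points are positions near the AP-1 genes with exact 95% intervals for counting error, black bars are positions near all protein-coding genes, and KD is Brg1 knockdown. In EB the red points away from starts, at 14% and 23.3%, lie below the bars at 34.4% and 53.7%.

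In EB of 12 h a smaller share of positions was lost near the AP-1 genes than near all genes, and the share gained was near the background. Of 87 positions 9 (10.3%, 4.84 to 18.7%) were lost, against 26.5% near all genes, and 18 of 96 (18.8%, 11.5 to 28.0%) were gained, against 19.3%. At 8 of 10 genes more were gained than lost, against 26.5% of genes, and at 1, Jund, more were lost, against 43.6%. Batf3 gained 5 and lost 1, Atf3 gained 4 and lost 2, Junb gained 3 and lost 2, and Fos, Fosb and Batf gained 2 each. Atf3 and Batf3 share part of their windows and so part of these counts. Away from starts 6 of 43 (14%, 5.3 to 27.9%) were lost, against 34.4%, and at starts 3 of 44 (6.82%, 1.43 to 18.7%), against 8.02%. With joining within 100 bp the lost share was 22.8%, against 34.8%, and with positions nearest to a member only it was 6 of 34 (17.6%), against 26.5%.

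In Flk1+ EB 15 of 87 (17.2%, 9.98 to 26.8%) were lost, against 41.5%, and 12 of 84 (14.3%, 7.61 to 23.6%) were gained, against 14.3%. More were lost at 3 of 10 genes, against 70.7%, and more were gained at 3, against 9.07%. Away from starts 10 of 43 (23.3%, 11.8 to 38.6%) were lost, against 53.7%. Joining within 100 bp gave 34.7%, against 48.3%, and equal list lengths gave 9.09%, against 25.0%. Both EB comparisons share the uninduced EB list. Of 79 positions in both induced lists 9 (11.4%) were absent from the uninduced one, against 8.5% near all genes. The highest-ranked was the Fos position at -29.0 kb (75.9 in induced EB), followed by 50.2 kb past the Atf3 start (63.5) and the Nsl1 position near Batf3 (58.0). Another 7 were in uninduced EB and neither induced list, with percentiles of 37.4 for Batf3 at -0.731 kb and 27.2 for Atf3 at -1.73 kb.

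Uninduced EB and uninduced MEF shared 54 positions near the AP-1 genes. Of the 90 in MEF 36 (40.0%, 29.8 to 50.9%) were missing in EB, against 55.6% near all genes, and of the 87 in EB 33 (37.9%, 27.7 to 49.0%) were missing in MEF, against 65.8%. At starts 15.4% of the MEF positions were missing in EB, against 13.1%, and elsewhere 58.8%, against 74.3%. Of the EB positions 25.0% at starts were missing in MEF, against 31.8%, and elsewhere 51.2%, against 80.4%. The EB list was the longer one. Even so 5 of the 10 genes had more positions in MEF alone than in EB alone, against 27.5% of all genes, and 4 the reverse, against 60.2%. Fosl2 had 8 in MEF alone and 0 in EB alone, Jun 6 and 3 and Fosl1 4 and 1. Junb had 2 and 9, Jund 3 and 6 and Batf 0 and 2. Of the 87 in uninduced EB 20 (23.0%) were in all 3 EB lists and no MEF list, against 25.4% near all genes, and of these Junb had 7 and Fosb 4.

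Within the Brg1 knockdown lists the comparison was again induced against uninduced of the same day. On day 1, 21 of 57 positions (36.8%, 24.4 to 50.7%) were lost, against 39.5% near all genes, and 6 of 42 (14.3%) were gained, against 16.4%. More were lost at 8 of 10 genes, against 56.9%, with Fosb at 5 lost and 1 gained and Jun at 4 and 2, and more were gained at 0, against 9.98%. On day 2, 9 of 56 (16.1%, 7.62 to 28.3%) were lost, against 32.9%, and 16 of 63 (25.4%, 15.3 to 37.9%) were gained, against 23.7%. None of the 30 positions at a start was lost on day 2 (exact 95% interval 0.0 to 11.6%, counting error only), against 12.3% near all genes. Away from starts 9 of 26 (34.6%, 17.2 to 55.7%) were lost, against 45.7%. More were gained at 4 of 10 genes, Fosb, Fosl1, Junb and Batf3, against 24.1%. More were lost at 1, Fos, with 1 lost and 0 gained, against 41.2%. Jun lost 3 and gained 3. The day-2 share rested on the settings: joining within 100 bp gave 34.7% (41.8% near all genes), and a score of at least 10 gave 34.5% (26.3%).

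Day 7 had too few positions to describe, with 3 of 6 lost (30.0% near all genes) and 8 of 11 gained (39.1%). More were lost at 2 genes (23.5%) and more gained at 3 (36.5%). The knockdown lists were processed apart from the other MEF lists, as their peak names show, so knockdown and processing cannot be told apart. Of the 90 positions in uninduced MEF 28 (31.1%) were in none of the 7 knockdown lists, against 34.5% near all genes, among them 6 of Fosl2 and 4 each of Fosb and Jun. The highest-ranked were Fosb at -6.95 kb (70.8), Atf3 at -38.9 kb (69.5) and Jun at 19.4 kb (68.5).

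In floxed EB the lists with and without 4OHT were compared at these positions. The lists with 4OHT were shorter, with 17946 and 20229 summits against 31436 and 23823 without it. The 2 samples without 4OHT had 62 and 56 positions near the AP-1 genes and the 2 with it 40 and 49, so the groups did not overlap. Near all genes the counts were 26599 and 20938 without and 15827 and 17624 with 4OHT, which did not overlap either. Of 48 positions found in both lists without 4OHT, 7 (14.6%, 6.07 to 27.8%) were in neither list with it, against 21.1% near all genes. Of 38 found in both with 4OHT, 1 (2.63%) was in neither without it, against 3.76%. Away from starts it was 4 of 16 (25.0%, 7.27 to 52.4%), against 47.2%, and at starts 3 of 32 (9.38%, 1.98 to 25.0%), against 7.32%. Of the 48 found in both lists without 4OHT, 36 were in all 4 lists, against 12612 of 18271 near all genes.

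The 7 missing positions were 2 each of Fosb and Fosl1 and 1 each of Fos, Junb and Jund. The highest by mean percentile lay at an Efemp2 start in the Fosl1 window (44.2; chr19:5473691-5474009), at -17.0 kb of Fosb (43.3; chr7:19326604-19327416) and at -1.54 kb of Fos (38.1). The 1 position found only with 4OHT lay inside Mast1 in the Junb window (19.4). Fosl2, Jun, Atf3, Batf and Batf3 had 0 missing, of 1, 1, 3, 2 and 3 positions. Both untreated lists decided this count: leaving out the first gave 13 of 56 missing (28.7% near all genes) and leaving out the second 19 of 62 (39.0%). Leaving out the second treated list gave 11 of 48 (27.9%). With equal list lengths 3 positions were missing, and with a score of at least 10 it was 0. The shares near all genes at these 2 settings are not given here, so both are counts without a background.

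Gene lists related to AP-1 were set beside these results, as counts of genes with more positions lost or gained. The upstream regulators (Srf, the Elk factors, MAP kinases and others, 12 genes) had more lost at 9 genes on day 1 and at 12 on days 2 and 7 and in Flk1+ MEF, where the shares of all genes were 62.3%, 88.3%, 91.5% and 85.4%. Their median difference on day 7, gained minus lost, was -5, the same as for the AP-1 genes at -5 and near that of all genes at -4. The bZIP partners and relatives (15 genes) had more lost at 12, 14, 14 and 14. The known AP-1 targets (17 genes) had more lost at 12, 17, 16 and 16 in the same order, so most genes of every list had more lost, as did most genes in general. In induced EB of 12 h the targets had more lost at 8 of 16 genes with a position and more gained at 1, against 1 and 8 of the 10 AP-1 genes and 43.6% and 26.5% of all genes. There the upstream regulators had more lost at 3 and more gained at 5 of 12 genes, and the bZIP partners and relatives 6 and 6 of 15.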

How the data were processed

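ATAC-seq reads of 34 samples in 17 groups were processed with Bowtie2 2.2.4 on mm10, MACS2 and HOMER, as listed in the submitters' processing notes. Duplicate handling, the transposase shift and how samples were pooled are not given in the sources used here. The deposited summit score is the −log10 of the q-value by the authors' peak caller, and no score lay below 1.3. Peak names show 3 processing sets (MEF without knockdown with EB of 12 h, knockdown MEF, floxed EB).

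All steps here ran in Python 3.11.15 (scipy 1.17.1, pandas 2.3.3, numpy 2.4.6; plots with matplotlib 3.10.9). Autosomal and X-linked summits of all 19 lists were joined within 250 bp (tested on simulated positions) and assigned to genes within 50 kb, using RefSeq gene intervals of GRCm38.p6. The median span of a position near a member was 158 bp. A position at a start lay within 1 kb of a start in the RefSeq promoter table, or of either gene end for the 4357 genes without an entry. Shares carry exact Clopper-Pearson 95% intervals, which cover counting error only. Read depth per sample was not used here, so precision is limited by list length.

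All 10 genes were named, with up to 3 positions per sharing pattern by score percentile. Other positions in the text were picked after their values were seen, from each gene's widely shared or cell-type-limited positions. The members and gene lists were chosen with earlier results of these data known. Alternatives were gene windows of 10 and 100 kb, narrower (100 bp) and wider joining, a score of at least 10, equal list lengths, nearest gene only and each floxed sample left out.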

Additional observations from a re-analysis of the deposited data

Results flagged for a closer look

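The Fos window had fewer positions in every induced MEF list than in uninduced MEF and more in both induced EB lists than in uninduced EB. Of all genes 62.3%, 88.3%, 91.5% and 85.4% had more lost than gained on MEF days 1, 2 and 7 and in Flk1+ MEF. More were gained than lost at 26.5% of all genes in induced EB and at 9.07% in Flk1+ EB. Each of these induced lists was shorter than its uninduced list. Gained minus lost positions were -2 in MEF on day 1 and 1 in EB of 12 h. Each of these is a difference between 2 lists without replicates, and the difference between MEF and EB was not tested. With a 10 kb window the Fos value was 0 on days 2 and 7 of MEF induction, and it was 0 on day 2 with equal list lengths. The smaller Fos values of MEF day 1, Flk1+ MEF and both induced EB lists were not recomputed with any alternative.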

How the results depend on the processing

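Of 91 recomputed summary values 63 stayed close to the reported one and 28 did not. Of 287 recomputed values of single genes 17 turned their sign, 28 became 0, and 242 did neither. The cause of these changes was not tested. Single genes were recomputed only where gained minus lost was at least 3 in either direction. Smaller differences were not recomputed, so the counts do not show how stable those are. With equal list lengths the lost shares were 25.7% on MEF day 2, 37.5% on day 7, 35.7% in Flk1+ MEF and 9.09% in Flk1+ EB, and 3 floxed positions were missing with 4OHT. With a score of at least 10 the lost shares were 89.6%, 95.8% and 79.2% in the 3 MEF lists and 62.1%, 34.5% and 0.0% on knockdown days 1, 2 and 7, and 0 floxed positions were missing. Joining within 100 bp gave 34.7% on knockdown day 2, 22.8% in induced EB and 34.7% in Flk1+ EB. A 10 kb window gave 61.3% on MEF day 7, 100% on knockdown day 7 and 2 missing floxed positions. Nearest gene only gave 100% on knockdown day 7 (1 position) and 3 missing floxed positions. The share near all genes changes with the setting too. Where it is not given above, these values cannot be read as a change particular to the AP-1 genes. Positions in uninduced MEF numbered 31 with the 10 kb window, 48 with the score limit and 42 with nearest gene only, against 90. Genes with a start summit in 17 or more lists numbered 7 within 2 kb (6 without Fosl1, which passed through a position at Ccdc85b) and 0 with the score limit, against 3, both chosen after seeing the data, as was the count without the day-7 knockdown lists.

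Leaving out 1 floxed sample gave 8 to 19 missing positions. The replicate block, in which both same-numbered pairs must lose a position, gave 7 as without it, since the counts are the same by construction. No paired analysis was possible because the pooled lists carry no replicate numbers and the numbers of the floxed samples are not said to mark a shared culture.

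Net signs of single genes turned with equal list lengths for Fosl1 (1) and Batf3 (3) on MEF day 2, for Fosl1 (1), Atf3 (1) and Batf3 (2) on day 7, for Fosb (2), Junb (2), Jund (1) and Batf3 (1) in Flk1+ MEF and for Jund (1) in Flk1+ EB. With a 10 kb window they turned for Jun on day 7 (1), in Flk1+ MEF (1) and in uninduced EB against MEF (1), where Jund was at -1. With a score of at least 10 they turned for Fosb (-1) and Batf3 (-1) on knockdown day 2 and for Jund in Flk1+ EB (1).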
